A study of Homo sapiens with 12 samples.

Results

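PANC1 cells exposed to C646 for 12 h were compared with PANC1 cells kept in DMSO for 12 h. PANC1 is an established human line from a pancreatic ductal carcinoma. C646 was given at 10 uM, and the control received its solvent, DMSO, at 0.05%. RNA was measured on Illumina HumanHT-12 BeadChips, on which each gene name has 1 row of signal in a column. Rows were compared when their signal was above the detection limit in at least 1 of the 2 columns. This held for 16940 of the 34687 rows of the table (48.8%), of which 14091 were above the limit in both columns, 1754 in C646 only and 1095 in DMSO only. Both columns were the authors' means of 2 arrays, so the differences are sizes without a replicate check and no p-value is given. The wider series held 12 columns, from PANC1 and from the colon cancer line HCT116, each with DMSO, C646 or the CBP inhibitor ICG-001 for 12 or 96 h. The PANC1 ICG-001 12 h column was a mean of 3 arrays and the others of 2. PANC1 stands here as a single cell line in culture, and cells of the 12 h and 96 h columns were cultured for different times. By the methods text, cells for 96 h also started at a lower density, were passaged, and had medium and drug renewed. The 2 DMSO columns therefore differ in more than time.

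CBP (CREBBP) and p300 (EP300) are paralogous co-activators that are brought to promoters and enhancers by DNA-binding factors. Their acetyltransferase domain adds acetyl groups to histone tails, including lysine 27 of histone H3, and to other proteins, and their bromodomain binds acetylated lysine. C646 competes with acetyl-CoA for that acetyltransferase domain in both proteins, whereas ICG-001 binds CBP and hinders its contact with β-catenin.

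The detection limit was a signal of 138.33 in the DMSO column and 137.24 in the C646 column, and the median signals of all rows were 132.69 and 133.53. Among the 17747 rows under both limits, the log2 ratio of C646 over DMSO had an SD of 0.0734, and 0 of them were 1.5-fold apart. The labelled cell type was checked against marker genes. All 6 duct and simple epithelial markers were above the limit in all 6 PANC1 columns. The 4 endothelial and the 3 erythroid markers were above it in none, nor were 7 of 8 acinar markers and 4 of 6 leukocyte markers. CEL (acinar), CD14 and CD68 (leukocyte) were above it in all 6, with CD68 at 3414.8 in DMSO 12 h. Of 7 intestinal markers, CDX2 and EPCAM were above it in all 6 and 3 in none. CHGB was above it in all 6 and 5 of 7 endocrine markers in none. COL1A1 was above it in all 6 and 4 of 6 fibroblast and stellate markers in none. The duct marker KRT7 read only 157.8 in DMSO 12 h. EIF5AL1, the row nearest to a limit from above, matched the DMSO limit to 2 decimals, at 138.33, and NID2, just left out, had 137.23 in C646.

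The DMSO 12 h column had the lowest signal of 18S ribosomal RNA among the PANC1 columns given here. The 18S ribosomal RNA row (RNA18SN5, listed as LOC100008588) had a signal of 141.3 in DMSO 12 h, against 732.4 in DMSO 96 h, 1108.5 in C646 12 h and 1702.5 in C646 96 h. It was therefore 7.84-fold higher with C646 at 12 h, the largest ratio of the comparison, but only 0.60 higher on the log2 scale over DMSO 96 h. The 28S row (RNA28SN5, listed as LOC100008589) went from 133.7, under the limit, to 509.5, at least 3.68-fold, and read 173.0 in DMSO 96 h, near DMSO 12 h, and 1417.9 in C646 96 h. The part of this difference in ribosomal signal in the results below was not tested. Many values are therefore given over DMSO 96 h too, and some for C646 96 h over DMSO 96 h and for C646 in HCT116, which share no column with the comparison.

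At a ratio of at least 1.5, 699 rows were higher with C646 (4.13% of the rows compared) and 472 were lower (2.79%), 1171 in either direction (6.91%). At 2-fold, 239 were higher (1.41%) and 62 were lower (0.366%). Most rows moved little. The median log2 ratio of the rows compared was -0.0047 and the range from the 5th to the 95th percentile ran from -0.454 to 0.519. Background was left in the signals, so ratios of dim rows understate their differences. Sorted by mean signal into 4 sets of 4235 rows, the rows gave 2, 92, 259 and 346 higher calls and 0, 37, 191 and 244 lower calls from the dimmest to the brightest set.

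**Figure D1:**
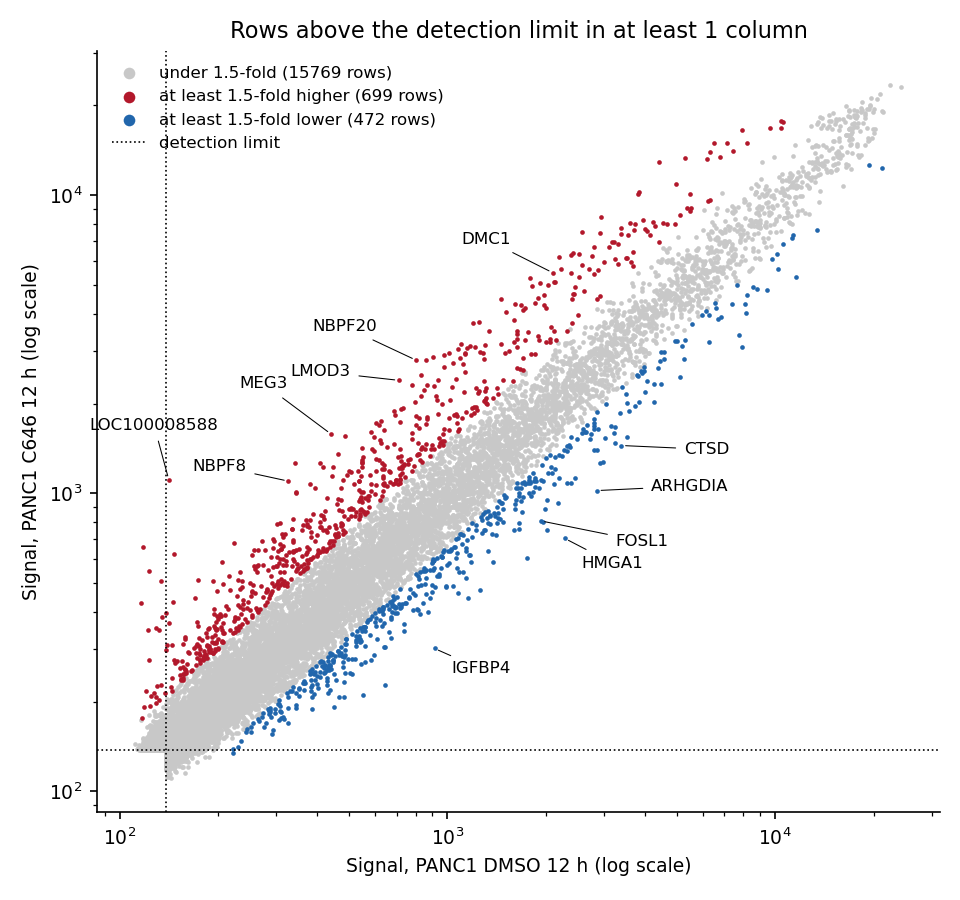
Signal of the 16940 rows compared, in DMSO 12 h (x axis) and C646 12 h (y axis), both on log scales, with the detection limits as dotted lines. The 699 red rows were at least 1.5-fold higher and the 472 blue rows at least 1.5-fold lower with C646; each point is a mean of 2 arrays. Among bright rows the red points lie beside the main cloud, and the colour change is the 1.5-fold cut.

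With DMSO 96 h in place of DMSO 12 h, C646 12 h gave 361 higher rows (2.16%) and 191 lower rows (1.14%). Of the 699 higher rows, 679 had a ratio above 1 over DMSO 96 h and 320 were past 1.5-fold. Of the 472 lower rows, 467 had a ratio under 1 and 120 were past 1.5-fold. These ratios keep the C646 12 h column by which the rows were chosen, which favours the same direction. DMSO 12 h was the lowest of the 6 PANC1 columns in 632 of the 699 higher rows and the highest in 409 of the 472 lower rows, which choosing rows by that column favours. The DMSO columns themselves differed at 217 rows (1.35%), and C646 12 h and C646 96 h at 84 rows (0.5%).

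HMGA1, an AT-hook protein that bends DNA and shapes chromatin, had the largest fall. Its signal was 2279.3 in DMSO 12 h and 1361.1 in DMSO 96 h, against 705.5 in C646 12 h and 636.3 in C646 96 h. Both C646 columns lay below both DMSO columns. HMGA1 was 3.23-fold lower with C646 at 12 h, with a log2 ratio of -1.69, or -0.95 over DMSO 96 h. The log2 ratio was -1.10 at 96 h and -0.98 in HCT116.

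IGFBP4, a secreted protein that binds insulin-like growth factors, was 3.03-fold lower and was nearly independent of the choice of control. Its signals were 913.3 and 886.2 in DMSO 12 h and 96 h, 512.7 and 363.8 in ICG-001, and 301.4 and 237.6 in C646. The log2 ratio was -1.60 over DMSO 12 h, -1.56 over DMSO 96 h and -1.90 at 96 h. In HCT116 both 12 h signals, 120.4 in DMSO and 129.8 in C646, were under the detection limit, so IGFBP4 gave no ratio there.

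ARHGDIA, an inhibitor that holds small GTPases in the cytosol, was 2.80-fold lower. Its signals were 2858.0 and 2250.1 in DMSO 12 h and 96 h and 1020.8 and 931.9 in the C646 columns, again with no overlap. Its log2 ratio was -1.49, or -1.14 over DMSO 96 h, and -0.72 in HCT116.

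The other genes among the 10 largest falls that held over both DMSO columns had different roles. FOSL1, an AP-1 subunit, went from 1924.0 in DMSO 12 h to 807.9 in C646 12 h, a log2 ratio of -1.25, with 1527.5 in DMSO 96 h and 619.3 in C646 96 h. In HCT116 its log2 ratio was -0.14. HYOU1, an endoplasmic reticulum chaperone, went from 1154.3 to 444.7, with a log2 ratio of -1.38, and of -1.01 over DMSO 96 h. CTSD, the lysosomal aspartic protease cathepsin D, went from 3394.8 to 1445.7, with -1.23 and -1.03. PACS1, a sorting adaptor of the trans-Golgi network, had a log2 ratio of -1.39 over DMSO 12 h and -0.70 over DMSO 96 h, and of -0.27 in HCT116. GRINA, a membrane protein of the TMBIM family, had -1.23 and -0.67. RNY4, a small non-coding Y RNA, went from 645.4 to 226.7 and read 427.3 in DMSO 96 h, with a log2 ratio of -0.15 in HCT116. The transcribed pseudogene LOC644936 went from 7891.8 to 3103.2, with 5080.4 in DMSO 96 h. The rule placed C646 12 h below both DMSO columns in these 10 rows. C646 96 h, which the rule did not use, lay below both as well.

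**Figure D2:**
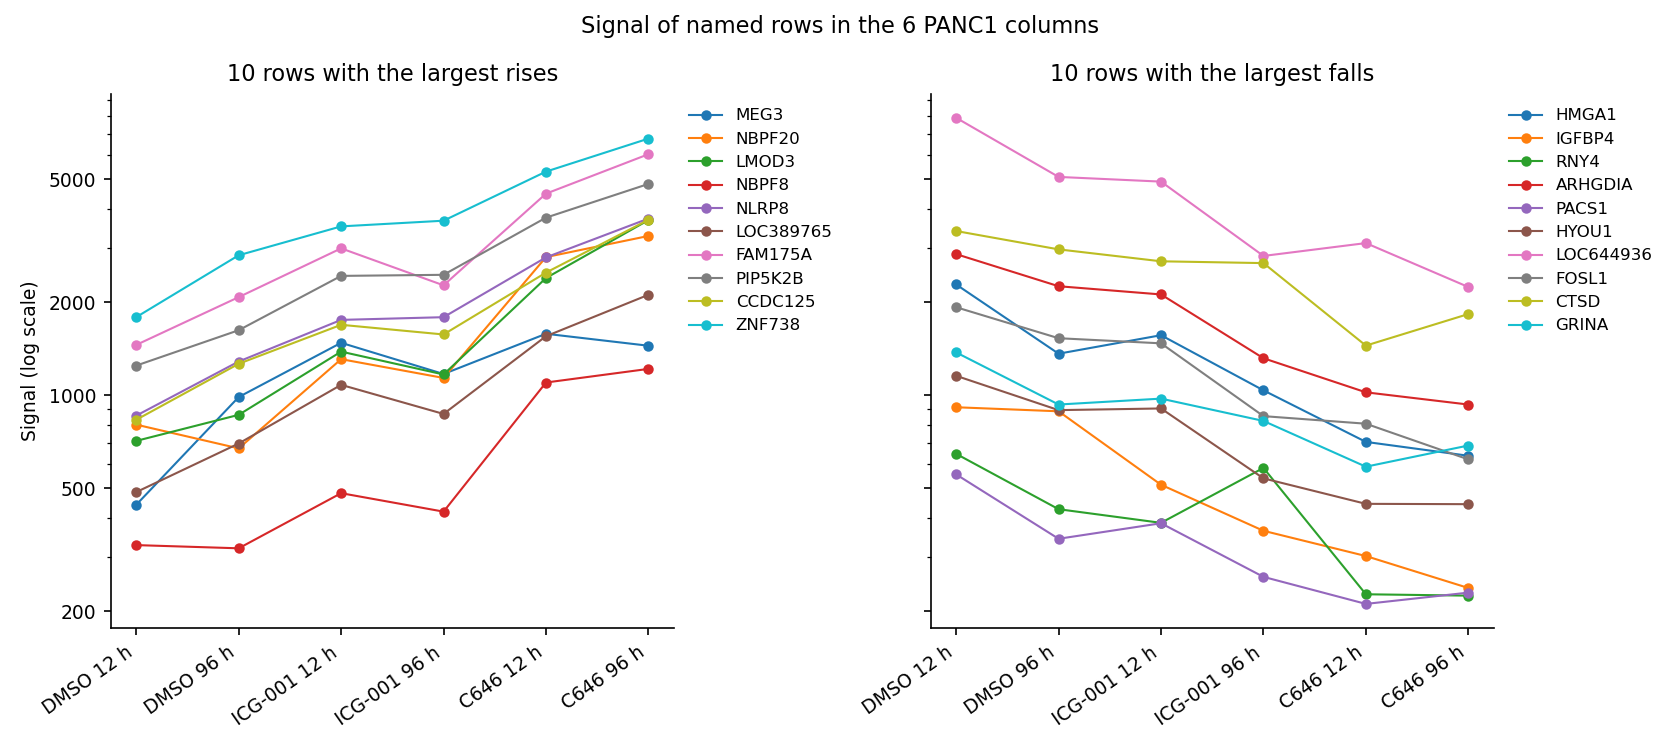
Signal (log scale) of the 10 rows with the largest rises (left) and the 10 with the largest falls (right) in the 6 PANC1 columns, among rows above the limit in both columns and past 1.5-fold over both DMSO columns. Each point is the authors' mean of the arrays of a column, so no error bar is drawn; the filter places C646 12 h beyond both DMSO columns, and C646 96 h, which it did not use, lies beyond them too in all 20 rows.

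Among the 10 largest rises that held over both DMSO columns, NBPF20 and NBPF8 belong to the neuroblastoma breakpoint family, whose members carry repeated Olduvai domains. NBPF20 went from 802.3 in DMSO 12 h to 2795.3 in C646 12 h, 3.48-fold, with 672.2 in DMSO 96 h and 3272.2 in C646 96 h. NBPF8 went from 327.0 to 1098.1, 3.36-fold, with 319.3 and 1215.4. Their log2 ratios were larger in HCT116, whose columns were not used to choose these rows. They were also larger at 96 h, where the DMSO column was used in the choice. NBPF20 had 2.28 at 96 h and 2.32 in HCT116, and NBPF8 had 1.93 and 2.11. Of the 16 NBPF rows, 7 were compared and 3 were higher, against 4.13% of all rows compared. NBPF10 was the third, with 605.8 and 1306.7 and a log2 ratio of 1.11. The other 9 were under the limit in both columns. The family's copies are near-identical, so which copies the probes read is uncertain.

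MEG3, an imprinted long non-coding RNA, went from 441.7 to 1578.9, 3.57-fold, but read 985.5 in DMSO 96 h. Its log2 ratio of 1.84 became 0.68 over DMSO 96 h, and it was 0.55 at 96 h and 0.02 in HCT116, where its signals of 131.5 and 133.4 were those of background. The DMSO 12 h column was the low point of MEG3, since ICG-001 12 h and 96 h also read 1476.3 and 1170.0.

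The remaining 7 of the 10 largest rises were unrelated by name. LMOD3 nucleates actin filaments in muscle, NLRP8 belongs to the NLR family, FAM175A (now ABRAXAS1) is a BRCA1 partner, PIP5K2B (now PIP4K2B) is a phosphoinositide kinase and ZNF738 carries zinc fingers. LMOD3 went from 710.8 to 2392.0, NLRP8 from 858.0 to 2789.3 and FAM175A from 1453.4 to 4484.7. Their log2 ratios of 1.75, 1.70 and 1.63 over DMSO 12 h were 1.47, 1.12 and 1.11 over DMSO 96 h. PIP5K2B went from 1245.8 to 3750.5, CCDC125 from 832.0 to 2490.6, ZNF738 from 1787.6 to 5285.4 and the pseudogene row LOC389765 from 485.4 to 1550.4. In HCT116 these 7 rows had log2 ratios from 1.06 (LMOD3) to 1.43 (LOC389765). Whether they read the transcripts they are named for was not tested.

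FAM175A, PIP5K2B and ZNF738 were part of a band of bright rows, described after its values were seen. Of the 3041 rows with a DMSO 12 h signal above 1000, 81 were at least 2-fold higher, with log2 ratios from 1.01 to 1.63 and a median of 1.26. The 2-fold cut sets the lower edge of the band and no gap marks it. Of the 3041 rows, 17 had a log2 ratio from 0.9 to under 1.0 and 15 from 1.0 to under 1.1. The median was 0.915 over DMSO 96 h, where 76 of the 81 were past 1.5-fold, though this ratio keeps the C646 12 h column that chose them. At 96 h it was 1.24, and in HCT116 at 12 h it was 1.12, and 77 of the 81 were past 1.5-fold in each. Over all 3041 bright rows, the medians of these last 2 ratios were -0.088 and -0.054. By RefSeq, 52 of the 81 rows were protein-coding, 5 were pseudogenes, 3 were transcribed pseudogenes, 3 were long non-coding RNAs and 18 had no match. Of all 3041 bright rows, these classes held 2419, 325, 37, 21 and 236.

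Several rows of the band carry names of genes known for restricted expression. DMC1, the recombinase of meiosis, read 2095.1 in DMSO 12 h and 5492.6 in C646 12 h, with 2872.9 in DMSO 96 h and 6646.6 in C646 96 h. IL10, a cytokine of leukocytes, read 1598.2 and 3805.8 in the 12 h columns, and AIRE, which drives self-antigen expression in the thymus, read 1297.4 and 3145.2. ALPP, placental alkaline phosphatase, read 2388.3 and 6314.7, and CATSPER2, a subunit of the sperm calcium channel, read 1335.3 and 3504.6. All of these signals were far above the limit of 138.33 in cells without the drug. Their log2 ratios lay between 1.25 (IL10) and 1.40 (ALPP), and between 0.92 (IL10) and 1.36 (ALPP) in HCT116. Over DMSO 96 h they lay between 0.88 (AIRE) and 1.08 (IL10). Probe sequences were not used here, so whether these rows read the named transcripts was not tested.

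Promoter sequence was available for 375 of the 465 protein-coding genes that were higher (80.6%) and 300 of the 370 that were lower (81.1%). The 250 bases before the start site, from RefSeq on GRCh38.p14, are shown for the 3 protein-coding genes with the largest falls over DMSO 12 h among those that held over both DMSO columns and for ZNF652, a zinc finger gene of the bright band. ZNF652 was chosen after its values were seen, 1011.6 in DMSO 12 h and 2965.0 in C646 12 h. Capitals mark the GC box, GGGCGG on either strand, which is a binding motif of SP1-type factors.
HMGA1 (chr6:34236623-34236872, + strand): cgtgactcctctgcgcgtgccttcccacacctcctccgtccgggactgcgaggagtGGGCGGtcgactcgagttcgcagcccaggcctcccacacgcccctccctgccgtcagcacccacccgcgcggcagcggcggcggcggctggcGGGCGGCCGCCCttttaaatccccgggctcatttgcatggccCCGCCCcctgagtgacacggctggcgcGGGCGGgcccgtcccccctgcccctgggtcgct
IGFBP4 (chr17:40443200-40443449, + strand): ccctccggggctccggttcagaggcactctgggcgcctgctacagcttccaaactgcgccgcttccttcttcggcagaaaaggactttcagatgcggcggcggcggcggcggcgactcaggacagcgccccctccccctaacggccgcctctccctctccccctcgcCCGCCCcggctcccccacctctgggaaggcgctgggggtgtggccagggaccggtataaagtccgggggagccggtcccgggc
ARHGDIA (chr17:81871338-81871587, - strand): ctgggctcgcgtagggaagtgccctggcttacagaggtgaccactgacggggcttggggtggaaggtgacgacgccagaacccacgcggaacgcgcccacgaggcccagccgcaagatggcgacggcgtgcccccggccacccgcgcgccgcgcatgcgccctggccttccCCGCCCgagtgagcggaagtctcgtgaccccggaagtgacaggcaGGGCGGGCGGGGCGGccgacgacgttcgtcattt
ZNF652 (chr17:49362251-49362500, - strand): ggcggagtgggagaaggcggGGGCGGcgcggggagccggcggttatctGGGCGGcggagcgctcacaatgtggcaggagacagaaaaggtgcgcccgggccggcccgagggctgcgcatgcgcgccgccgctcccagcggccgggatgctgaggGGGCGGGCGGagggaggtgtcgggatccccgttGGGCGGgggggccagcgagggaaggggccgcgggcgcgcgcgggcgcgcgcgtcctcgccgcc
These windows held 5, 1, 4 and 5 copies of the GC box, overlapping copies counted, and 74.8%, 71.6%, 71.6% and 79.6% G and C.

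Promoters of the higher and the lower genes were alike in composition. The median share of G and C was 66.4% for the higher genes and 66.6% for the lower genes, against 64.8% for the compared genes under 1.5-fold. The GC box stood in 71.7% of the higher, 77.0% of the lower and 67.1% of the other compared genes, and in 42.3% of all promoters of the table. The AP-1 motif TGANTCA stood in 4.27%, 6.0% and 3.68%, and in 6.6% of all promoters. The cyclic AMP response element TGACGTCA stood in 2.67%, 2.67% and 2.98%, and in 1.77% of all. Both strands were searched, and a match of letters does not show that a factor binds. The lower genes lay on chromosome 19 in 57 of 370 cases (15.4%) and the higher genes in 51 of 465, against 765 of the 10696 other compared genes (7.15%), and their median lengths were 23.3 kb, 26.8 kb and 28.9 kb.

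The targets of the drug themselves stayed within 1.5-fold. CREBBP read 548.1 in DMSO 12 h and 632.5 in C646 12 h, and EP300 read 362.2 and 268.5, with log2 ratios of 0.21 and -0.43. Of 21 histone acetyltransferases and acetyl-lysine readers, KAT2A (GCN5, the catalytic subunit of SAGA) was higher, from 1106.7 to 1783.6, and MYST3 (now KAT6A) was lower, from 525.2 to 321.8. KAT2A was at 1125.1 in DMSO 96 h, so its log2 ratio of 0.69 was 0.66 there, whereas that of MYST3 went from -0.71 to -0.36. Of 14 histone deacetylases compared, 0 passed 1.5-fold, against 6.91% of all rows compared, the lowest being SIRT2 at -0.54. The medians of both lists, 0.016 and 0.026, were close to the -0.005 of all rows compared. Among histone variants, H2AFX (now H2AX), which is phosphorylated at DNA breaks, read 1260.1 and 474.2, a log2 ratio of -1.41, but -0.46 over DMSO 96 h.

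Genes of WNT signaling, the pathway in which β-catenin recruits CBP, showed small differences. CTNNB1, which encodes β-catenin, read 223.4 and 228.7, a log2 ratio of 0.03. Its DNA-binding partner TCF7L2 read 244.8 and 171.6, a log2 ratio of -0.51. Among 13 WNT feedback and target genes compared, NKD2, an antagonist of Dishevelled, was higher, from 383.4 to 744.0 with 478.4 in DMSO 96 h, and 0 were lower. The median was -0.15 over DMSO 12 h but 0.033 over DMSO 96 h. MYC had a log2 ratio of 0.40, CCND1 (cyclin D1) 0.28, BIRC5 (survivin) 0.19 and S100A4 -0.18. S100 proteins, small calcium-binding proteins, were below 0 in 11 of 12 rows, against 8598 of the 16940 rows compared. Their median was -0.114, and 0 passed 1.5-fold, against 6.91% of all rows compared.

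Output and feedback genes of the ERK pathway were on the low side over both DMSO columns. Of 14 compared, 0 were higher, 2 were lower and 11 had a log2 ratio below 0. The median was -0.234, against -0.005 for all rows compared, of which 8598 of 16940 were below 0 and 6.91% were called. It was -0.399 over DMSO 96 h, -0.37 at 96 h and -0.242 in HCT116. FOSL1, described above, and EPHA2, a receptor tyrosine kinase, were the 2 past 1.5-fold, and EPHA2 went from 1592.6 to 755.4 with 1338.4 in DMSO 96 h. SPRY2 and SPRY4, feedback inhibitors of the pathway, had log2 ratios of -0.37 and -0.35, and -0.74 and -0.62 over DMSO 96 h. DUSP6, an ERK phosphatase, had -0.19 and -0.49. Of 17 AP-1 and immediate early genes, FOSL1 and JUND were lower and 0 were higher. JUND went from 4449.3 to 2770.0, with 5016.8 in DMSO 96 h, while JUN read 1034.5 and 898.5, with a log2 ratio of -0.20 that was -0.70 over DMSO 96 h. IER3, whose log2 ratio was 0.48 over DMSO 12 h, had -0.17 over DMSO 96 h.

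Genes of sterol and fatty acid synthesis were on the low side at 12 h. Of 21 cholesterol biosynthesis genes, 17 had a log2 ratio below 0 and the median was -0.279, or -0.388 over DMSO 96 h. Among all rows compared, 8598 of 16940 were below 0, with a median of -0.005 over DMSO 12 h. DHCR7, which catalyses the last step to cholesterol, went from 1169.9 to 620.1 and IDI1, the isomerase of the isoprenoid units, from 817.3 to 517.0. Both were past 1.5-fold over DMSO 12 h, with log2 ratios of -0.92 and -0.66. SQLE, squalene epoxidase, read 1684.8 and 1145.8, within 1.5-fold. HSD17B7 alone was higher, from 2412.9 to 6404.0, with a log2 ratio of 1.41, and of 0.91 in HCT116. By these signals HSD17B7 was a row of the bright band, and whether it reads the named transcript was not tested.

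Of 16 other genes tied to the SREBP transcription factors compared, 1 was higher and 2 were lower. Their median was -0.193, or -0.322 over DMSO 96 h. The shares over all rows compared were 4.13% higher and 2.79% lower. FADS1 and FADS2, desaturases of polyunsaturated fatty acids, were lower over both DMSO columns. FADS1 read 2386.1 in DMSO 12 h, 2284.6 in DMSO 96 h and 1080.8 in C646 12 h, and FADS2 read 311.4, 311.9 and 176.8. SCAP, the sterol-sensing escort of SREBP, was higher over DMSO 12 h, from 595.5 to 1388.9, but read 1074.0 in DMSO 96 h. The 12 h pattern was not seen at the later time, where C646 over DMSO gave a median of 0.024 for cholesterol genes and 0.104 for the other SREBP genes. SCD, a desaturase, went from 5541.0 in C646 12 h to 11801.2 in C646 96 h, and DHCR7 from 620.1 to 1232.4. In HCT116 at 12 h the medians were 0.017 and -0.034.

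**Figure D3:**
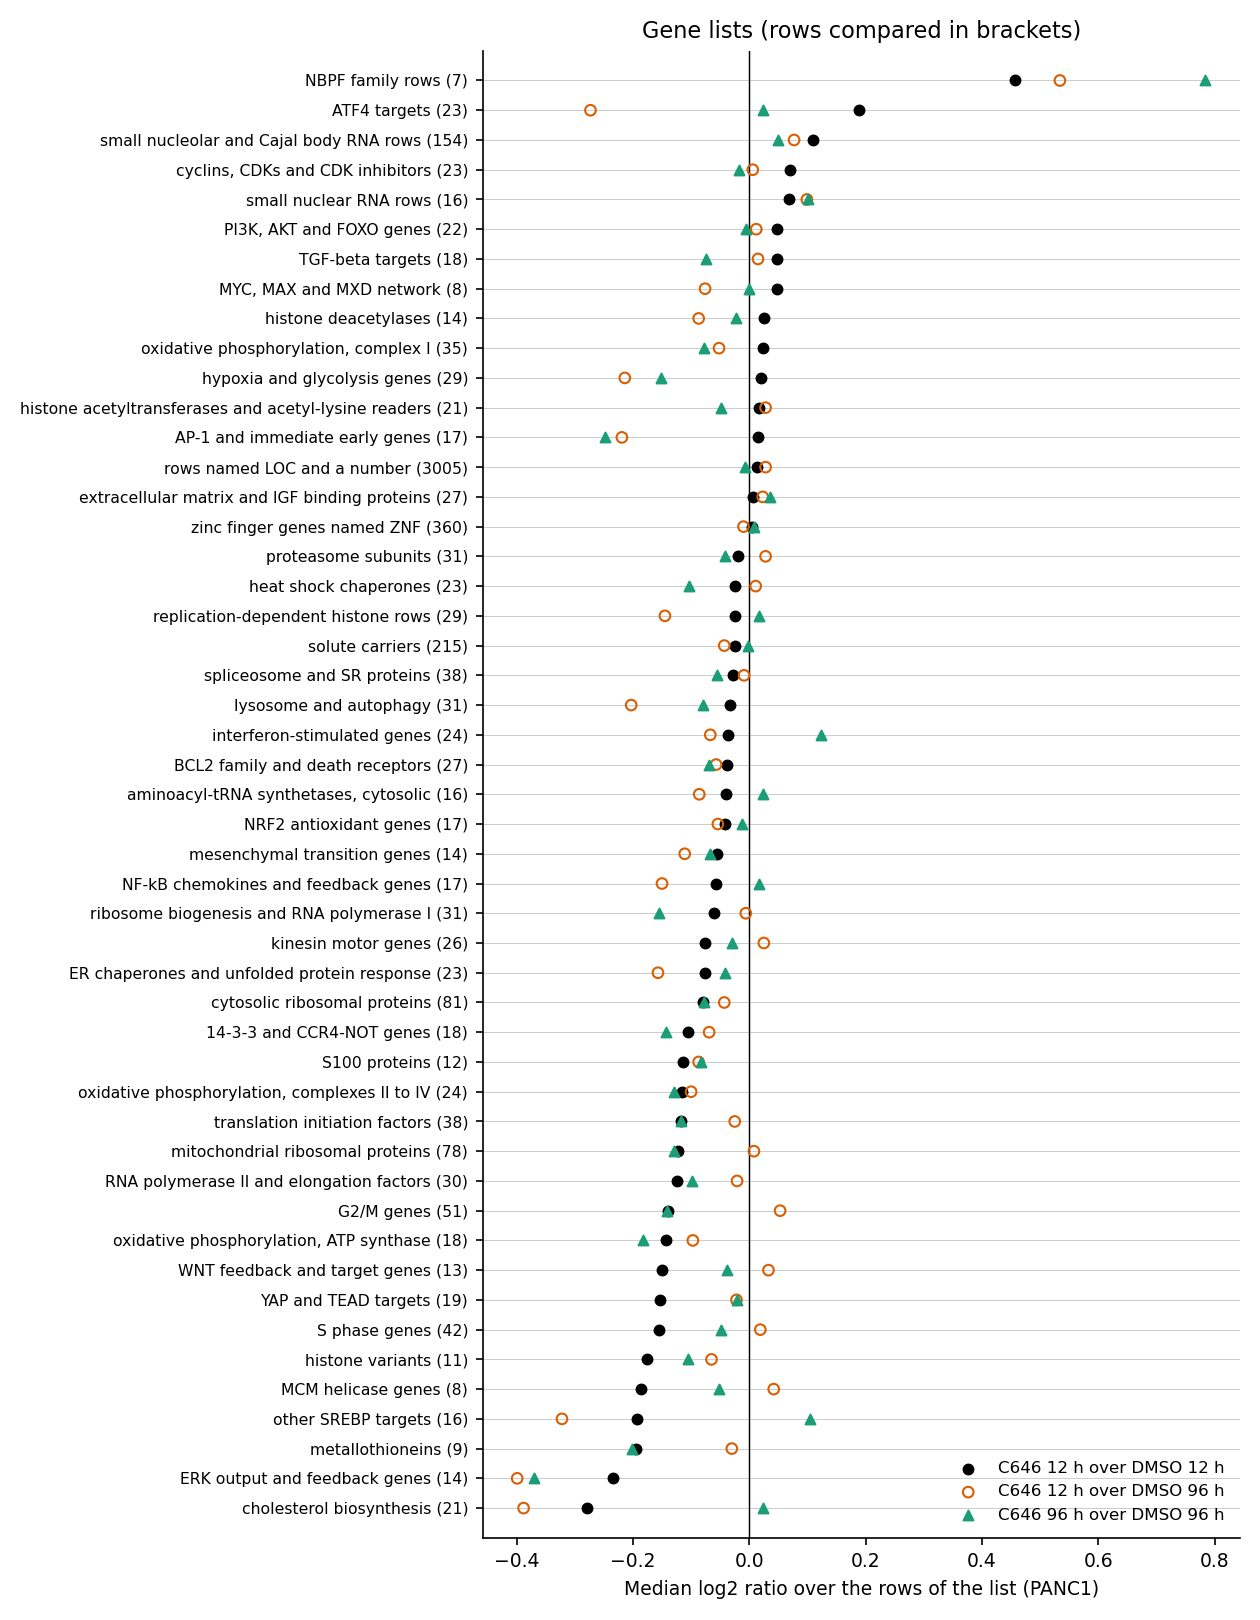
Median log2 ratio of gene lists with at least 7 rows compared, in PANC1, for C646 12 h over DMSO 12 h (black), C646 12 h over DMSO 96 h (open orange) and C646 96 h over DMSO 96 h (green triangles). The black and orange points share the C646 12 h column and the orange points and triangles share the DMSO 96 h column; ERK output genes lie left of 0 in all 3 and cholesterol genes in the 2 ratios of C646 12 h.

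Amino acid response genes depended on the DMSO column. Targets of ATF4, the transcription factor of the integrated stress response, had a median of 0.189 over DMSO 12 h but -0.273 over DMSO 96 h. SLC7A5, a carrier of large neutral amino acids, went from 1701.8 to 4118.2 and read 3453.9 in DMSO 96 h. PHGDH, the enzyme that commits glucose carbon to serine, went from 1252.4 to 2209.4 and read 3339.5 in DMSO 96 h. These were the 2 of 23 targets past 1.5-fold, against 6.91% of all rows compared. NUPR1, a stress-induced chromatin protein, read 216.9 in DMSO 12 h and 205.9 in C646 12 h, against 496.5 in DMSO 96 h and 859.6 in ICG-001 12 h. GDF15, a stress cytokine, was lower over both, with 1426.5 in DMSO 12 h, 3779.5 in DMSO 96 h and 823.7 in C646 12 h.

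CDKN1A, the CDK inhibitor p21, went from 550.8 to 1006.2, 1.83-fold, but read 856.7 in DMSO 96 h, so its log2 ratio of 0.87 over DMSO 12 h was 0.23 there. It was 0.23 at 96 h and 0.13 in HCT116. S phase genes (42 rows) had 0 calls in either direction and a median of -0.155, and G2/M genes (51 rows) had 3 higher, 2 lower and a median of -0.14. Over all rows compared, 6.91% were called, and the 5 G2/M calls were not below that share. Over DMSO 96 h both medians were above 0, at 0.019 and 0.053.

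BCL2L1, which encodes the survival protein BCL-XL, was lower over both DMSO columns. It read 2800.4 and 2258.1 in DMSO 12 h and 96 h and 1391.8 and 1345.8 in C646, and its log2 ratio was -1.01, or -0.70 over DMSO 96 h, and -0.77 in HCT116. SOX9, a transcription factor of duct cells, read 1406.8 and 1376.3 in DMSO and 722.5 and 746.7 in C646, and was -1.41 in HCT116. The other duct and simple epithelial markers stayed within 1.5-fold over DMSO 12 h in PANC1. Their log2 ratios were -0.56 for KRT8, -0.08 for KRT7, -0.03 for KRT19, 0.26 for MUC1 and 0.49 for KRT18. APOE, an apolipoprotein, read 4270.1 and 3784.3 in DMSO and 2025.1 and 2775.3 in C646, and SFN (14-3-3 sigma) read 872.4 and 792.8 against 399.6 and 527.7. For BCL2L1, SOX9, APOE and SFN, both C646 columns lay below both DMSO columns. BCL2L1 had the largest fall of its list. SOX9, APOE and SFN were chosen after their values were seen, which favours such an order of columns.

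Chaperone genes split. Of 23 endoplasmic reticulum chaperone and unfolded protein response genes, HYOU1 and CALR (calreticulin) were lower and HSP90B1 and CRELD2 were higher. Over all rows compared, 4.13% were higher and 2.79% were lower. CALR went from 3232.8 to 1589.3, and HSP90B1 (GRP94) from 4154.8 to 7357.6. HSP90B1 read 6118.7 in DMSO 96 h, and its log2 ratio of 0.82 was 0.27 there, under 1.5-fold. CALR read 2270.1 in DMSO 96 h, and its log2 ratio of -1.02 was -0.51 there, also under 1.5-fold. Of 23 heat shock chaperones, HSPA1A, HSPA1B and BAG3 were higher and DNAJB1 and STIP1 were lower. The medians were -0.076 for the endoplasmic reticulum list and -0.024 for the heat shock list, against -0.005 for all rows compared. HSPA1A went from 1891.8 to 3373.9 but read 3433.0 in DMSO 96 h, so its log2 ratio of 0.83 over DMSO 12 h was -0.025 there.

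Genes of translation had more rows below 0 than above it. Translation initiation factors were below 0 in 29 of 38 rows, with a median of -0.117, and EIF4B went from 4062.7 to 2385.4, with 3532.3 in DMSO 96 h. Mitochondrial ribosomal proteins were below 0 in 56 of 78 rows, with 1 higher, 3 lower and a median of -0.122. Over DMSO 96 h these medians were -0.025 and 0.008. Proteasome subunits had 0 calls in 31 rows and a median of -0.02. The share of calls over all rows compared was 6.91%, and 8598 of those 16940 rows were below 0, with a median of -0.005. Bright rows lay slightly low in general, with a median of -0.071 over the 3041 rows with a DMSO 12 h signal above 1000.

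RPS26, a protein of the small ribosomal subunit, was lower together with rows named for its pseudogenes. RPS26 went from 5130.4 to 2454.3, with 3482.6 in DMSO 96 h, a log2 ratio of -1.06, or -0.50 over DMSO 96 h. Of 14 RPS26 pseudogene rows compared, 7 were lower and 1 was higher, with a median of -0.571. Pseudogene copies can share a probe's target with RPS26, so these rows cannot be counted as separate genes. Of 81 cytosolic ribosomal protein rows, 2 were lower (RPS26 and RPL36) and 1, RPL7L1, was higher, and the median was -0.08. The share of calls over all rows compared was 6.91%. RPL7L1, from 3119.9 to 6716.3, was a row of the bright band, and whether it reads the named transcript was not tested.

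Of 16 small nuclear RNA rows compared, 5 were higher and 1 was lower, against 4.13% and 2.79% of all rows compared. The log2 ratio was above 0 in 8 and below 0 in 8, with a median of 0.069. This median was -0.06 for rows above the limit in both columns and -0.025 without a filter. The 5 higher rows were all copies of U1. The U1 row RNU1A3 (now RNU1-1) read 173.3 in DMSO 12 h and 375.9 in DMSO 96 h, against 510.9 in C646 12 h and 580.1 in C646 96 h. RNU1G2, under the limit in DMSO 12 h, was at least 2.52-fold higher. These copies are near-identical and cannot be counted as separate genes. RNU4ATAC, the U4 RNA of the minor spliceosome, ran the other way, from 450.2 in DMSO 12 h to 191.5 in C646 12 h, with 218.4 in DMSO 96 h. Of 4 Y RNA rows, RNY4 and RNY1 were lower, and RNY1 went from 842.6 to 429.6 with 701.3 in DMSO 96 h.

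Among rows that no RefSeq symbol names, the largest rise was LOC100132761, from 118.0, under the limit, to 661.7, at least 4.78-fold, with 143.8 in DMSO 96 h and 524.5 in C646 96 h. LOC100132564 was at least 3.96-fold higher, from 123.0 to 547.4, and LOC100132394 went from 146.7 to 623.3. The largest falls were LOC728908, from 467.3 to 207.6, LOC731314, from 2865.7 to 1395.4, and LOC100132425, from 990.3 to 484.9. Rows without a RefSeq match were higher in 145 of 3455 cases (4.2%) and lower in 40 (1.16%), against 4.13% and 2.79% of all rows compared.

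The calls were set beside the 2 comparisons of C646 with DMSO that share no column with this one. In PANC1 at 96 h, 481 rows were higher (2.93%) and 203 were lower (1.24%). Of the 699 rows higher at 12 h, 383 were also higher at 96 h, which is 54.8% of the first list and 79.6% of the second. Of the 472 lower rows, 133 were also lower, 28.2% and 65.5% of the lists, and 0 rows were called in opposite directions. In HCT116 at 12 h, 441 rows were higher (2.69%) and 260 were lower (1.59%). The overlap was 311 higher rows, 44.5% and 70.5% of the lists, and 112 lower rows, 23.7% and 43.1%. The median log2 ratio of the 699 higher rows was 0.636 at 96 h and 0.516 in HCT116, and that of the 472 lower rows was -0.451 and -0.393.

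**Figure D4:**
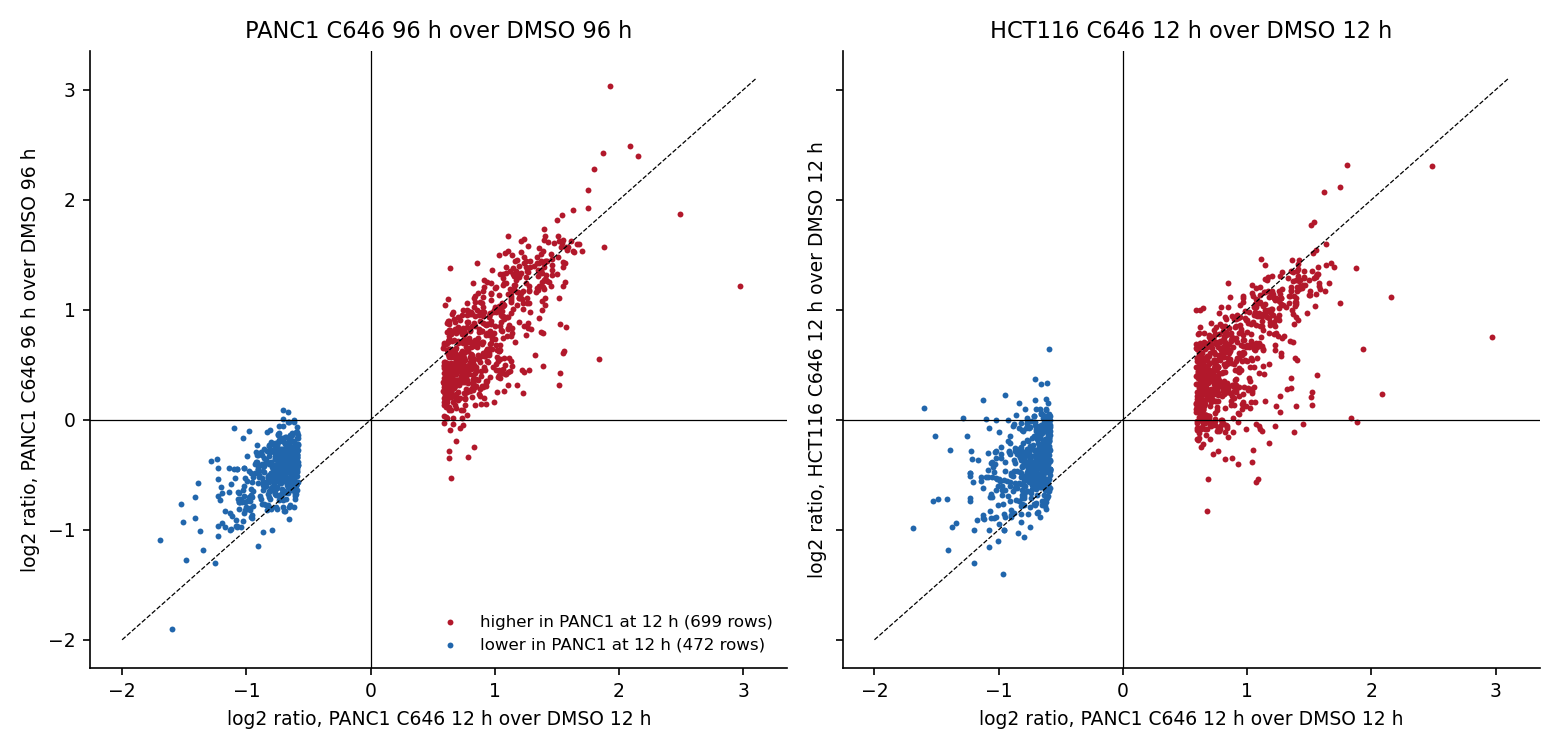
Log2 ratio of C646 over DMSO in PANC1 at 12 h (x axis) against that in PANC1 at 96 h (left) and in HCT116 at 12 h (right) for the 699 higher (red) and 472 lower (blue) rows; the dashed line marks equal ratios. Signs were the same for 688 higher and 469 lower rows at 96 h, and for 632 and 433 in HCT116.

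ICG-001 at 12 h was compared with the same DMSO 12 h column and changed 376 rows upward (2.27%) and 58 downward (0.35%). For the falls described above, its log2 ratios were smaller in size than those of C646, being -0.55 and -1.69 for HMGA1, -0.83 and -1.60 for IGFBP4, -0.43 and -1.49 for ARHGDIA and -0.39 and -1.25 for FOSL1. NUPR1 was 1.99 with ICG-001 and -0.07 with C646, and ULK1, a kinase that starts autophagy, was 1.68 and 1.14. MEG3, NBPF20, NBPF8, LMOD3, NLRP8, LOC389765, FAM175A, PIP5K2B, CCDC125 and ZNF738 were also higher with ICG-001 than in DMSO 12 h. Their log2 ratios ran from 0.56 (NBPF8, under 1.5-fold) to 1.74 (MEG3). With C646, NBPF8 had 1.75 and MEG3 had 1.84. The median of cholesterol biosynthesis genes was -0.247 with ICG-001 and -0.279 with C646, whereas that of ERK output genes was 0.196 and -0.234. Because the control column is shared, these values are given side by side only.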

How the data were processed

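The table that the authors deposited holds intensity values on a linear scale, with a single row for each gene name. By the methods text, the authors hybridised labelled RNA to Illumina HumanHT-12 v4 BeadChips and used GenomeStudio. Arrays were put on a common distribution of values (quantile normalization), background stayed in the signals, and a column is the mean of its arrays. Values of single arrays were not used here, so replicate error is unknown and no test was run. The number of arrays, 2 a column (3 for PANC1 ICG-001 12 h), limits the precision. The table has 0 columns of per-sample values that match no sample.

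Ratios were taken between columns of a cell line on the log2 scale. Background forms the main peak of each column's log2 signals. The detection limit lay 2.33 SD above this peak, the SD coming from the values on its lower side, and a ratio of 1.5 was called. Rows under the limit in DMSO have a lower bound for their fold, the C646 signal divided by the DMSO limit. Names were matched to RefSeq (GRCh38.p14), 17755 rows by current symbol, 3305 by older symbol, 2669 by gene identifier and 10958 not at all. The array annotation's build was not given in the sources used here.

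The 52 gene lists were summarised by counts and medians, with 1 row a gene. The genes named by rule were the 10 largest rises and falls among rows that a RefSeq symbol names, above both limits and past 1.5-fold over both DMSO columns, the extremes of each list, the study's WNT model genes and the 3 largest rises and falls among other rows. Genes named beyond these were chosen after their values were seen. A few genes and lists were left out of the text. The members and lists were chosen with earlier results of these data known. The alternatives were other fold thresholds, limits and scalings and the DMSO 96 h control. The tools were Python 3.11.15 (numpy 2.4.6, pandas 2.3.3, scipy 1.17.1, matplotlib 3.10.9) and R 4.3.3 with limma 3.58.1 for normexp and Seurat 5.3.0 for the S phase and G2/M lists.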

Additional observations from a re-analysis of the deposited data

Results flagged for a closer look

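For 2 rows, C646 12 h over DMSO 12 h passed 1.5-fold in opposite directions in the 2 cell lines. CD68, a lysosomal membrane protein abundant in macrophages, had a log2 ratio of -0.59 in PANC1, from 3414.8 to 2265.6, and of 0.64 in HCT116, from 290.5 to 453.9. RAB26, a small GTPase of secretory vesicles, had a log2 ratio of 0.67 in PANC1, from 309.0 to 492.7, and of -0.83 in HCT116, from 404.2 to 227.6. Each line had 1 column a treatment, so the difference between the lines was not tested.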

How the results depend on the processing

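The counts of 699 higher and 472 lower rows became 2336 and 2329 at 1.2-fold, 239 and 62 at 2-fold, 1590 and 1317 after normexp background correction, and 361 and 191 with DMSO 96 h as the control. The cause of the last change was not tested. The higher rows were 59.7% of the calls, against 50.1% at 1.2-fold and 79.4% at 2-fold. With a stricter limit, no filter, both columns above the limit, median centring or quantile normalization over 12 columns, the counts stayed within 1.5 times, at 666 to 709 and 461 to 478. With DMSO 96 h as the control and rows chosen anew, the medians turned sign for WNT targets (0.053), ATF4 targets (-0.296), S phase genes (0.019), G2/M genes (0.046), mitochondrial ribosomal proteins (0.008), MCM helicase genes (0.042) and kinesins (0.01), and HSPA1A became -0.025. Of the 127 rows named by rule, 35 others fell under 1.5-fold with that control. A further 77 moved by more than 0.0734 on the log2 scale and 14 did not. Another 20 list medians moved by more than 0.0734 and 25 did not. Normexp moved 71 of the 127 rows by more than 0.0734. Without a filter the median of 16 NBPF rows was -0.01. No paired analysis was possible because each group has 1 column, a mean of its replicates, and leaving out a replicate was not possible for the same reason.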

Other observations

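Of all rows compared, 4.13% were higher and 2.79% were lower, and the counts of single classes are given against these shares. Long non-coding RNA rows were higher in 22 of 330 cases (6.67%) and lower in 2, and transcribed pseudogenes were higher in 24 of 330 (7.27%) and lower in 4. Rows of ribosomal protein pseudogenes ran the other way, with 7 higher and 26 lower of 291. Small nucleolar and Cajal body RNA rows were above 0 in 104 of 154 cases, against 8342 of the 16940 rows compared. Of these small RNA rows, 5 were higher and 0 were lower, and their median log2 ratio was 0.109. SNORD3D, a copy of U3 RNA, went from 204.9 in DMSO 12 h to 589.7 in C646 12 h and read 445.8 in DMSO 96 h. MT2A, a metallothionein, went from 21178.5 to 12287.3, with 15036.1 in DMSO 96 h, and MXD4, a MAX partner, from 305.0 to 640.7, with 577.7 in DMSO 96 h.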
